A study of Mus musculus with 8 samples.

Results

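The data concern natural killer (NK) cells in mice that lack a short regulatory element of the chemokine gene Ccl5, and the genes whose expression moved the same way in lung and in spleen when the element was absent. The element, Ccl5-PE, is a proximal enhancer that was deleted with CRISPR guides. Its homozygous mutant is written Ccl5-ΔPE/ΔPE and carries the label KO. Freshly sorted CD45+ TCRb- NK1.1+ cells from WT and KO mice of the C57/Bl6 background gave 8 libraries, 2 per organ and genotype, so that 4 KO libraries were set against 4 WT libraries with organ as a block. No treatment is named in the labels, all groups share the background and the sort, and the methods give one age range, of young to adult mice, for the study as a whole and none for each library. Per the methods, each mouse line was kept and bred apart from the others, so the deletion and any other difference between the lines cannot be told apart. Neither the labels nor the methods say whether the libraries came from separate mice, so p-values measure the spread between libraries, which may be technical. In the fit with organ as a block, a KO effect that differs between the organs adds to that spread.

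A gene was counted as moving together in both organs when both KO libraries lay above both WT libraries in lung and again in spleen, or below them in both. This held for 2155 of 12595 genes tested (17.1%), of which 1120 were higher in KO (8.89%) and 1035 lower (8.22%). Membership uses the contrast itself, so these counts are a description and not a test. For comparison, 5041 genes lay on opposite sides of WT in the 2 organs (40.0%), 2653 of them higher in lung KO and lower in spleen KO (21.1%) and 2388 the reverse (19%), and 5399 overlapped in at least 1 organ. The margin can be thin. Among genes with a mean of at least 5 CPM (reads of a gene scaled to the size of its library), Uqcrc1, a subunit of respiratory complex III, lay just inside, its highest spleen KO library at 476.66 CPM against 476.73 in the lowest WT library. Tubgcp5, a component of the complex that starts microtubules, lay just outside, with 36.966 CPM in a spleen KO library against 36.967 in the highest WT library.

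CCL5 is a chemokine that draws T cells, NK cells and monocytes into tissue. Effector and memory lymphocytes and resting NK cells hold its mRNA ready. Enhancers are stretches of DNA that bind transcription factors and raise the output of a promoter, often one at some distance on the same chromosome. Several CC chemokine genes stand side by side with Ccl5 on mouse chromosome 11.

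The depth was uneven, between 3132963 and 26482366 reads on genes per library, and 3 reads amounted to between 0.115 and 0.977 CPM. NK markers were abundant in every library but moved with the genotype in opposite directions in the 2 organs. Their sum over 8 genes was 39151 and 37860 CPM in lung WT against 31476 and 31466 in KO. In spleen it was 28559 and 28310 CPM in WT against 37578 and 35837 in KO. On opposite sides lay 7 of the 8 (87.5% against 40.0% of all genes tested). None was called for the shared effect by edgeR (0 at an unadjusted p under 0.05, 0 by DESeq2), a fit in which opposite organ effects cancel. The Y-linked genes Ddx3y, Eif2s3y, Kdm5d and Uty had 1 read in total over all libraries and Xist was present in each, so all libraries show the pattern of female mice. Of the markers of other cells, a summed 271 to 742 CPM came from B cell genes, 325 to 632 from T cell genes and 321 to 482 from myeloid genes, and 330 to 511 CPM came from lung epithelial, endothelial and stromal genes in lung.

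Ccl5 fell to 16.3% of WT in lung and to 15.8% in spleen. Its levels were 19480 and 18314 CPM in lung WT and 2987 and 3189 in lung KO. In spleen they were 16647 and 15633 CPM in WT against 2671 and 2428 in KO. Every KO library was therefore far under every WT library, and transcripts remained in all of them. In sorted bulk cells, fewer cells that express a gene and less RNA per cell cannot be told apart. The shared log2 fold change, KO over WT, was -2.64 (SE 0.07, n = 4 libraries per genotype, adjusted p = 2.53e-06 in edgeR's quasi-likelihood test), and the effects in lung (-2.61) and spleen (-2.67) did not differ beyond their error (adjusted p of the difference 0.416). No other gene tested had a smaller p. The comparison also checks the labels, since the targeted gene was low in each library labelled KO.

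**Figure D1:**
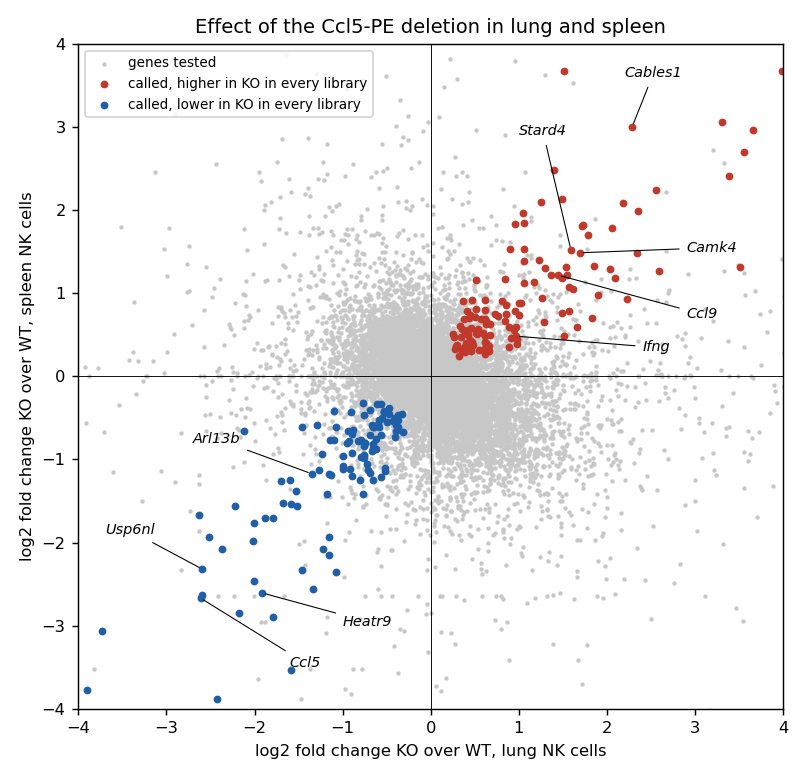
Each point is a gene, with its log2 fold change, KO over WT, in lung NK cells (x axis) and in spleen NK cells (y axis); grey points are all genes tested and coloured points are those called at a false discovery rate of 0.05 with KO on the same side in every library, red if higher and blue if lower in KO. The coloured points lie along the rising diagonal, which their selection fixes, with Ccl5 near -2.6 on both axes; 366 genes, 29 of them coloured, lie outside the axes.

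With organ as a block, 279 of 12595 genes were called at a false discovery rate of 0.05 (2.22%), of which 161 were higher (1.28%) and 118 lower (0.937%) in KO. On the same side in every library were 267 of them (2.12%), 152 higher and 115 lower. The size of the effect was at least 2-fold in 135 of the 279 genes, and the median absolute log2 fold change was 0.97 over the called genes against 0.18 over all genes tested. The number of calls rested on having all 8 libraries: it fell to between 13 and 22 when any 1 of them, WT or KO, was left out. Of the 279 genes, 28 were called again in at least 1 of those 8 fits. At an unadjusted p under 0.05 there were 2310 genes (18.3%), and at a false discovery rate of 0.001 there were 3 (0.0238%): Ccl5, Stard4 and Ccl9. The genes below are therefore described by their values in each library, beginning with those called in every fit. In 48 of the 279 called genes the KO effect also differed in size between the organs at a false discovery rate of 0.05, a test that 7753 of all genes passed (61.6%). With organ as a block, an effect that differs between organs adds to the spread, so calls favour genes whose organ effects agree. The low share of such differences and the 267 genes on the same side therefore follow in large part from the selection. Within single organs 7000 genes were called in lung (55.6%) and 7195 in spleen (57.1%), and 928 genes were called in both with KO on the same side. The common coefficient of variation was 17.7% with organ as a block and 2.5% in the model of group means, which gave the calls within organs. Over the 4 groups, the variance between libraries was 1.20 to 1.46 times that of counting, so the calls within organs rest on a small spread.

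The neighbours of Ccl5 moved in both directions. Within 500 kb of the Ccl5 start on chromosome 11 (Ccl5 at chr11:83525778-83530518, minus strand, GRCm38), 45 genes are annotated, 29 had a read in any library and 22 were tested. Of these, 7 were called, against 2.22% of all genes tested: Ccl5, Heatr9, Gm11427 and Slfn1 fell, and Ccl9, Ccl6 and Ccl4 rose. A further 3, among them Slfn2 (log2 fold change 0.24) and Taf15 (0.43), lay on the same side without being called, and 6 lay on opposite sides in the 2 organs (27.3%, against 40.0% of all genes tested).

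Heatr9, the nearest tested gene, begins 8.34 kb from the Ccl5 start on the same strand (chr11:83511736-83522175). It encodes a HEAT repeat protein of little known function. Lung WT had 19.6 and 16.3 CPM and lung KO 3.88 and 5.57, with spleen at 16 and 16.8 CPM in WT against 2.28 and 2.75 in KO. The groups were widely apart in each organ, and the shared log2 fold change was -2.26 (SE 0.21, adjusted p = 0.00577). The fall was larger in spleen (-2.61) than in lung (-1.91, adjusted p of the difference 0.0375).

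On the other side of Ccl5, towards the deleted element, lie Ccl9 (chr11:83572919-83578636) and Ccl6 (chr11:83587882-83593087), 42.4 and 57.4 kb away. Both encode mouse CC chemokines that act on myeloid cells through CCR1. Ccl9 was at 34.9 and 36.5 CPM in lung WT against 98.1 and 94.9 in KO, and at 14.5 and 13.9 CPM in spleen WT against 35.8 and 32.2 in KO. It rose 2.56-fold (log2 1.35, SE 0.09, adjusted p = 0.000864), and the KO libraries stood well above WT in both organs. Ccl6 had few reads, 7 to 113 per library, and moved by a like amount: 3.10 and 1.81 CPM in WT against 5.92 and 7.06 in KO for lung, and 1.75 and 1.75 against 4.56 and 4.32 for spleen (log2 1.34, SE 0.23, adjusted p = 0.0378). Ccl6 and Ccl9 are close relatives, and reads that match both cannot be told apart from these counts.

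The promoters of these neighbours are shown to let the paired chemokine genes be compared with each other and with the gene that fell. Sequences are RefSeq entries on GRCm38.p6, from 250 bases before to 50 after the annotated start, written 5′ to 3′ on the minus strand. Capitals in Ccl9 and Ccl6 mark bases that fall in runs of at least 10 bases also present in the other promoter. Overlapping runs are joined, so the first capital stretch of Ccl9 does not occur whole in Ccl6, where its runs stand apart. Ccl9 is read from chr11:83578587-83578886, Ccl6 from chr11:83593038-83593337 and Heatr9 from chr11:83522050-83522349. The Heatr9 window follows the start of the RefSeq entry, which differs from the gene boundary given above, chr11:83522175.
Ccl9: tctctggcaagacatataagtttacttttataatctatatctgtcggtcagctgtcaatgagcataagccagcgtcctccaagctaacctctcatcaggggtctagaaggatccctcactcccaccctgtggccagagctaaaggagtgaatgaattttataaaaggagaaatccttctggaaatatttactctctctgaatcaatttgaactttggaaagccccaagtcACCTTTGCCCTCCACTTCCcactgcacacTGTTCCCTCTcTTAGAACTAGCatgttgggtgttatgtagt
Ccl6: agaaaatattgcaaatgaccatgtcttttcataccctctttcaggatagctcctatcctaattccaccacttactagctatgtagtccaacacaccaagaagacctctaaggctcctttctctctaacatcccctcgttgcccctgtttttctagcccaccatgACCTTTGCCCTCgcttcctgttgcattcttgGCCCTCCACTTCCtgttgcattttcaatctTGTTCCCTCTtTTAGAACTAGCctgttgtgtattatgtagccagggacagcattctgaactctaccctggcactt
Heatr9: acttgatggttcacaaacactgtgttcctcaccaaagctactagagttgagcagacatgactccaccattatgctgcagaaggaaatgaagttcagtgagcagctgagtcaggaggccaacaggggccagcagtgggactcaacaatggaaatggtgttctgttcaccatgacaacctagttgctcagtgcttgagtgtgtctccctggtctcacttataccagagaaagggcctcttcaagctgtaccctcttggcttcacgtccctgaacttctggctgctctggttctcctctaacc
Of the 300 bases, 40 in Ccl9 and 46 in Ccl6 fall in such shared runs, the longest of 13 bases. The element Ccl5-PE holds recognition sites of RUNX proteins, so the letters TGTGGT and TGCGGT were searched on both strands. None of the promoters shown contains either. Of the other called neighbours only Slfn1 has an entry among these promoters, and it holds 1 such hexamer. Over all 32851 promoters in the table, 22.4% hold at least 1 of these hexamers. The share was 21.7% for genes tested, 23.5% of 136 promoters of called genes that were higher, and 20.7% of 92 promoters of called genes that were lower.

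Further out, Ccl4 (132 kb from the Ccl5 start), a chemokine that NK cells also secrete, had 888 and 827 CPM in lung WT against 1027 and 1054 in KO, and 181 and 183 in spleen WT against 240 and 225 in KO. The KO libraries were higher in both organs by a small amount (log2 0.31, SE 0.06, adjusted p = 0.0483). Its neighbour Ccl3 lay on opposite sides in the 2 organs, with log2 fold changes of -0.10 in lung and 0.59 in spleen. On the far side, Slfn1, a member of the Schlafen family of growth regulators in lymphocytes, fell by 1.47 on the log2 scale (SE 0.27, adjusted p = 0.0404) at 408 kb, and the pseudogene Gm11427 fell by 1.97 (SE 0.24, adjusted p = 0.0136) at 269.6 kb. The exons of Gm11427 overlap those of the transcript AI662270 on the same strand, so reads on the shared bases may be missing from both. AI662270 itself had a log2 fold change of 0.11.

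**Figure D2:**
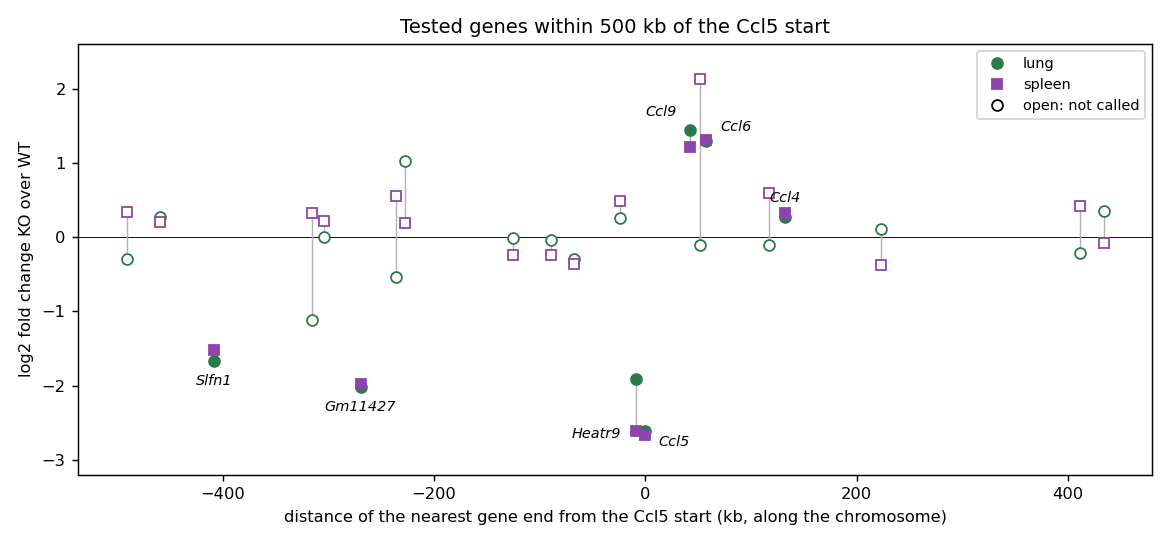
Log2 fold change, KO over WT, of the 22 tested genes within 500 kb of the Ccl5 start (y axis) against the distance of the nearest end of each gene from that start in kb (x axis, positive on the side of Ccl9); circles are lung, squares are spleen, a grey line joins the organs of a gene, and filled symbols mark genes called for the shared effect. The filled symbols below 0 are Ccl5, Heatr9, Gm11427 and Slfn1 and those above it Ccl9, Ccl6 and Ccl4; the highest open symbol is E230016K23Rik in spleen, at 2.13.

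Called in each of the 8 fits that left out 1 library were 11 genes. Besides Ccl5, Heatr9 and Ccl9 they were Stard4, Capg, Cables1, Camk4, Clasp2 and the pseudogene Gm15610, which were higher, and Arl13b and Usp6nl, which were lower. Each of the 11 had KO on the same side of WT in both organs.

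Stard4 carries cholesterol between membranes inside the cell. It was at 42.7 and 41.6 CPM in WT against 131 and 125 in KO for lung, and 40.4 and 42.8 against 118 and 121 for spleen, so that the WT libraries of both organs sat at one level and the KO libraries at another. The rise was 2.95-fold (log2 1.56, SE 0.07, adjusted p = 6.27e-05), the smallest p among genes that rose. Camk4, a calcium- and calmodulin-dependent kinase of lymphocytes, lies next to Stard4 on chromosome 18. It went from 6.08 and 7.5 CPM in lung WT to 22.1 and 20.5 in lung KO, and from 7.48 and 6.88 in spleen WT to 24.1 and 19.1 in spleen KO (log2 1.62, SE 0.14, adjusted p = 0.00448). Cables1, which binds cyclin-dependent kinases and is on the same chromosome, showed the largest rise among called genes with a mean of at least 5 CPM, 6.28-fold (log2 2.65, SE 0.22, adjusted p = 0.00378). Its values were 2.98 and 2.84 CPM in WT against 13.7 and 14.8 in KO for lung, and 1.25 and 1.98 against 15.3 and 13.8 for spleen.

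Capg and Clasp2 act on the cytoskeleton, Capg by capping actin filaments and Clasp2 by steadying the ends of microtubules. Capg levels were 84.0 and 82.5 CPM in lung WT against 152 and 149 in KO, and 52.9 and 57.4 in spleen WT against 104 and 101 in KO, with little scatter within a group (log2 0.87, SE 0.07, adjusted p = 0.00244). Clasp2 rose from 7.44 and 5.95 to 20.2 and 20.4 CPM in lung and from 12.0 and 12.0 to 35.8 and 26.5 in spleen (log2 1.46, SE 0.15, adjusted p = 0.00736). Of the genes that fell, Arl13b, a small GTPase of the primary cilium, had 39.5 and 35.2 CPM in WT against 15.5 and 14.4 in KO for lung, and 25.2 and 20.1 against 8.80 and 9.79 for spleen (log2 -1.29, SE 0.12, adjusted p = 0.00577). Usp6nl, a protein that switches off the endosomal GTPase RAB5, fell from 11.4 and 11.4 to 2.25 and 1.63 CPM in lung and from 5.73 and 5.48 to 1.95 and 0.994 in spleen (log2 -2.39, SE 0.25, adjusted p = 0.0085). Within each organ the KO libraries of these 4 genes stayed clear of the WT libraries.

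**Figure D3:**
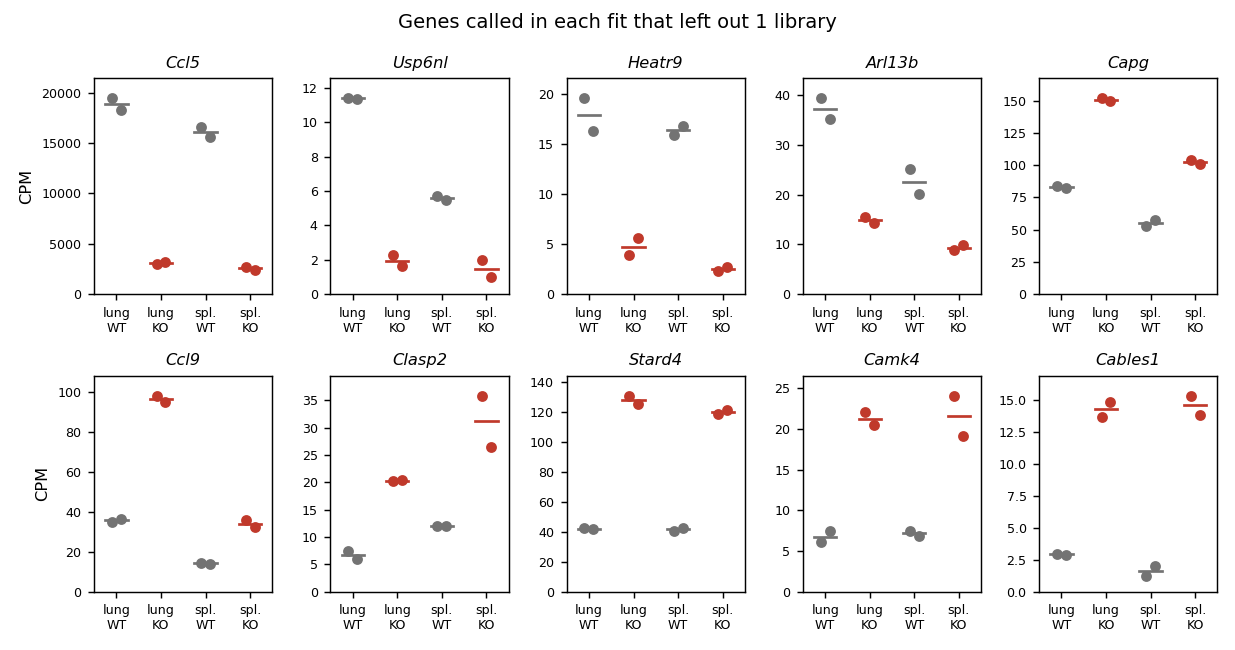
CPM on a linear axis from 0 (y axis) in each of the 8 libraries by organ and genotype (x axis) for 10 of the 11 genes called in every fit that left out 1 library; each dot is a library, the bar is the mean of the group's 2 libraries, grey is WT and red is KO. The WT and KO dots are separate in both organs for all 10 genes; Gm15610, which had no read in WT, is not drawn.

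Rab4a, a GTPase of recycling endosomes, showed the largest fall among called genes with a mean of at least 5 CPM (log2 -3.11, SE 0.46, adjusted p = 0.0272). It had 8.93 and 5.43 CPM in WT against 1.63 and 2.04 in KO for lung, and 14.7 and 16 against 0.977 and 0.765 for spleen, so the loss was deeper in spleen. Ston2, an adaptor of endocytosis, was at 3.35 and 4.65 CPM in lung WT and 0.997 and 1.28 in spleen WT, and had no read in 3 of the 4 KO libraries. Atp8a2, which flips phospholipids between the leaflets of a membrane (log2 -3.88, adjusted p = 0.0126), and Atp6v0d2, a subunit of the proton pump of acid compartments (log2 -2.08, adjusted p = 0.0213), also fell. The exons of Atp8a2 overlap those of Nupl1 on the same strand. Napb, a partner of SNARE proteins in vesicle fusion, rose, with 1 read in all WT libraries and 130 in KO, as did Slc25a37, the mitochondrial iron importer mitoferrin-1 (log2 1.42, SE 0.27, adjusted p = 0.0431).

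S1pr1, the receptor for sphingosine 1-phosphate by which lymphocytes leave tissues, was at 76.9 and 79.4 CPM in lung WT and 114 and 108 in KO, and at 84.5 and 78.5 in spleen WT and 143 and 140 in KO (log2 0.65, SE 0.08, adjusted p = 0.0185). Irak4, the kinase that carries signals from Toll-like and IL-1 family receptors, including that for IL-18, rose by 1.0 on the log2 scale (SE 0.11, adjusted p = 0.00887), with 32.0 and 30.8 against 50.5 and 61.2 CPM in lung and 38.4 and 36.5 against 85.7 and 82.8 in spleen. Igf1r, the receptor for insulin-like growth factor 1, fell by 1.83 (SE 0.23, adjusted p = 0.0149), and Inpp4b, a phosphatase of phosphoinositides, fell by 1.85 (SE 0.26, adjusted p = 0.0242). Both genes were lower in every KO library of either organ than in the WT libraries of that organ.

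Hhex, a homeobox factor of early lymphoid and NK development, fell from 106 and 99.8 to 68.0 and 65.0 CPM in lung and from 50.4 and 50.7 to 30.3 and 33.6 in spleen (log2 -0.64, SE 0.07, adjusted p = 0.0132). Cpeb2, which binds mRNA tails (log2 -1.14), Fignl1, a helper of DNA repair by recombination (-0.85), Gatb, a subunit of the mitochondrial enzyme that makes glutaminyl-tRNA (-1.15), and Narfl, of iron-sulfur cluster assembly (-0.72), were lower, with adjusted p from 0.0085 to 0.0205. Ppp1r10, a nuclear regulator of protein phosphatase 1 (0.86), Nt5c2, a nucleotidase (0.76), Mocos, which activates molybdenum enzymes (1.73), Fam13b (0.62) and the zinc finger gene Zfp940 (1.76) were higher, with adjusted p from 0.0136 to 0.0404. The genes Irak4, Narfl and Fam13b share exon bases with a tested gene on the opposite strand (Twf1, Haghl and Pkd2l2). With a kit that does not mark strand, reads on those bases cannot be told apart and may be missing from both. Exon bases shared with another tested gene, on either strand, were found in 42 of the 279 called genes.

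Some called genes had reads in 1 genotype only. The processed pseudogene Gm15610 had 35 and 57 reads in lung KO, 27 and 227 in spleen KO and none in any WT library, which is at least 68.1-fold higher against 3 reads over the 4 WT libraries. Gm6916, another processed pseudogene, was at least 44.5-fold higher on the same basis. Ctla4, the inhibitory receptor known from T cells, had 14 and 23 reads in lung KO and 5 and 36 in spleen KO and none in WT (at least 15.4-fold higher). Tbc1d4, which controls glucose transporter traffic (at least 15.6-fold), and Asns, asparagine synthetase (at least 12.6-fold), followed the same pattern. In the other direction Tex15, a gene of germ cells, was at least 23.1-fold lower and Gm44627 at least 20.3-fold lower in KO. Apart from Gm15610, these genes were picked with their values in view. Pseudogenes share sequence with their parent genes, so their counts are uncertain. Greb1l had 1 read in WT and 153 in KO, and Podnl1, a leucine-rich repeat protein, was at 1.49 and 1.29 CPM in lung WT against 0 and 0.136 in KO, and at 2.24 and 2.92 in spleen WT against 0 and 0.0765 in KO.

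The called genes were unevenly spread over the chromosomes. On chromosome 18, 22 of 284 tested genes were called (7.75%), 15 of them higher. The other autosomes and the X ranged from 1.20% to 4.0%, with chromosome 14 next. Within chromosome 18, 18 of 170 genes that start below 50 Mb were called (10.6%) and 4 of 114 beyond it (3.51%), a boundary chosen after the positions were seen. Stard4, Camk4, Cables1, Greb1l, Mocos and Fam13b belong to the first stretch. On chromosome 11, which carries the deletion, 25 of 1031 genes were called (2.42%), close to the share over all genes. Whether WT and KO mice differ elsewhere on these chromosomes was not tested.

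**Figure D4:**
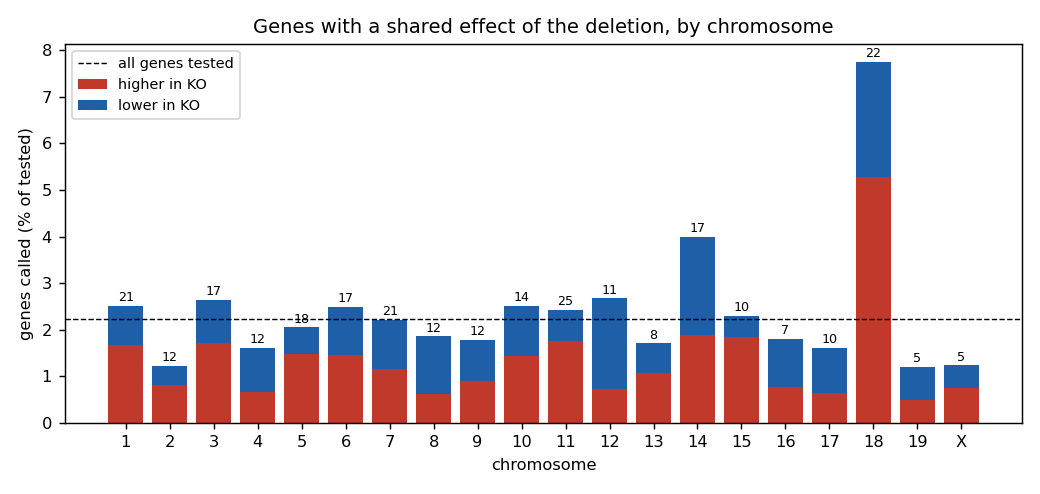
Share of tested genes that were called for the shared effect (y axis, percent) on each chromosome (x axis), split into genes higher (red) and lower (blue) in KO; the number above each bar is the count called and the dashed line is the share over all genes tested, 2.22%. Chromosome 18 stands highest with 22 called genes, 7.75% of 284.

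The gene lists describe NK cell functions. Over all genes tested 2.22% were called, so 0 or 1 calls in a list of 18 to 32 genes is near that share. Of 10 chemokine genes tested, 3 were called higher (Ccl9, Ccl6 and Ccl4) and 1 lower (Ccl5), and the median log2 fold change was 0.18 against 0.01 over all genes tested. By organ that median was -0.155 in lung and 0.439 in spleen, and 3 of the 10 lay on opposite sides (30%). Among 7 secreted cytokines only Ifng was called. Ifng, the main cytokine by which NK cells activate macrophages, was at 92.6 and 94.1 CPM in lung WT and 184 and 180 in KO, and at 83.3 and 78.6 in spleen WT and 109 and 113 in KO. Its rise was 1.64-fold (log2 0.72, SE 0.11, adjusted p = 0.0288) and larger in lung than in spleen. None of the 18 cytotoxic granule and death ligand genes was called by edgeR (3 at an unadjusted p under 0.05, 1 by DESeq2). On the same side, 3 lay higher (Gzmk, Ctsw and Unc13d, where 8.89% of all genes tested did), and 8 lay on opposite sides (44.4% against 40.0% of all genes tested). The median was 0.05, with -0.02 in lung and 0.11 in spleen.

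Of 32 NK receptors only Tigit, an inhibitory receptor for nectin family ligands, was called (2.22% of all genes tested were). Its level was 114 and 117 CPM in lung WT against 151 and 163 in KO, and 127 and 124 in spleen WT against 149 and 156 in KO (log2 0.36, SE 0.07, adjusted p = 0.046). On opposite sides in the 2 organs were 24 of the 32 receptors (75% against 40.0% of all genes tested). The SLAM and GIMAP list, 16 genes tested, had 1 call in each direction: Slamf6, a self-binding SLAM receptor, was higher (log2 1.16, SE 0.21, adjusted p = 0.0406), and Sh2d1b2, an adaptor of the SLAM receptors, was lower (log2 -2.36, SE 0.46, adjusted p = 0.0455). Its close relative Sh2d1b1 lay on opposite sides in the 2 organs. Cd27, a costimulatory receptor of less mature NK cells, was called among 24 integrin, homing and residency genes, with 88.5 and 91.8 CPM in WT against 112 and 122 in KO for lung, and 188 and 176 against 225 and 233 for spleen (log2 0.35, SE 0.07, adjusted p = 0.0433).

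None of 26 lineage and maturation transcription factors was called by edgeR (7 at an unadjusted p under 0.05, 2 by DESeq2) and none of 24 genes of IL-2, IL-15, IL-12 and IL-18 signalling (4 and 0). The share called over all genes tested was 2.22%. Of the transcription factors 6 lay lower on the same side, among them Tox (-0.40), Ets1 (-0.30) and Zeb2 (-0.18), and 2 lay higher, beside 8.22% lower and 8.89% higher over all genes tested. Of 30 immediate early genes, which respond within minutes to activation or to handling of the cells, 1 was called, the AP-1 member Fosl2 (log2 0.52, SE 0.09, adjusted p = 0.0378), and 23 lay on opposite sides (76.7%). Of 17 circadian clock genes 2 were called, both lower (0.937% of all genes tested were called lower): Tef, a clock-controlled transcription factor (log2 -0.66, SE 0.11, adjusted p = 0.0375), and Cry1, a repressor of the clock (-0.89, SE 0.17, adjusted p = 0.0434). A further pair, Cry2 (-0.60) and Csnk1e (-0.24), lay lower on the same side without being called. With the called pair this made 4 of 17 against 8.22% of all genes tested, and no clock gene lay higher on the same side. On opposite sides lay 5 of the 17 (29.4% against 40.0% of all genes tested). The median log2 fold change of the clock genes was 0.04 in lung and -0.42 in spleen. None of 14 glucocorticoid-induced genes was called by edgeR (6 at an unadjusted p under 0.05, 3 by DESeq2).

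Ribosomal protein, proliferation and chaperone genes on the same side were mostly higher in KO. Over all genes tested, 1.28% were called higher, on the same side 8.89% lay higher and 8.22% lower, and 40.0% lay on opposite sides. On opposite sides were 16 ribosomal protein genes (21.1%), 14 proliferation genes (46.7%) and 10 chaperone genes (45.5%). Median log2 fold changes in lung and spleen were 0.01 and 0.30 for the ribosomal protein genes. They were 0.82 and -0.07 for the proliferation genes, and 0.16 and 0.18 for the chaperone genes. Of 76 cytosolic ribosomal protein genes, 3 were called and all were higher, among them Rpl13 (0.35) and Rpl32 (0.34), 20 were on the same side and higher, and 1, Rps29, lower, with a median of 0.18. Reads that also match their pseudogenes may be missing or misplaced, and Rpl32 overlaps Cand2 on the other strand. Of 30 proliferation genes, Ccna2, the cyclin of S phase and mitosis, was called (log2 0.53, SE 0.10, adjusted p = 0.043), 10 lay higher on the same side, including Mki67 (0.53) and Cdk1 (0.46), and 1 lower. Of 22 heat shock and chaperone genes, the co-chaperones Dnaja1 (0.37) and Hspe1 (0.51) were called and 8 lay higher on the same side, none lower. The exons of Ccna2, Dnaja1 and Hspe1 overlap those of Exosc9, Smu1 and Hspd1 on the other strand. Mx1, an antiviral GTPase, was the only call among 30 interferon-stimulated genes and was lower (log2 -0.77, SE 0.16, adjusted p = 0.0498). EdgeR called none of 74 nuclear oxidative phosphorylation genes (5 at an unadjusted p under 0.05, 0 by DESeq2). Of these 74, 45 lay on opposite sides (60.8% against 40.0% of all genes tested). EdgeR also called none of 8 mitochondrially encoded genes (0 and 0, with 7 on opposite sides, 87.5%) and none of 41 splicing genes (3 and 1, with 24, 58.5%). The same held for 17 noncoding transcripts (3 and 1, with 6, 35.3%) and 19 MHC class I and antigen processing genes (1 and 0, with 11, 57.9%). Slfn1 was the only call among 6 Schlafen genes and S1pr1 the only call among 12 chemokine and egress receptors, beside 2.22% called over all genes tested.

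**Figure D5:**
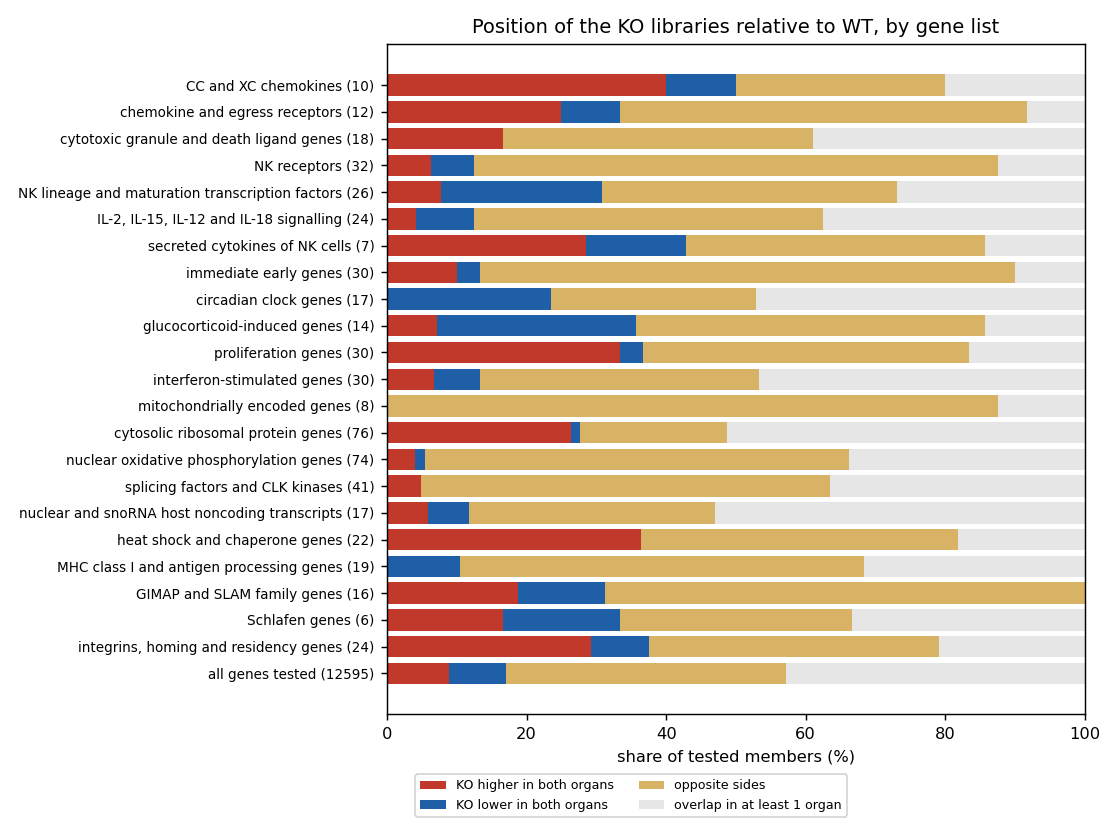
Share of the tested members of each gene list (x axis, percent) with KO higher than WT in both organs (red), lower in both (blue), on opposite sides (tan) or overlapping in at least 1 organ (grey); the number tested is in parentheses and the bottom bar is all 12595 genes. Red exceeds blue for ribosomal protein, proliferation and chaperone genes, and tan takes 75% of the NK receptors and 76.7% of the immediate early genes against 40.0% of all genes.

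Markers of other cells moved with the genotype in places. Of 9 B cell markers tested, Ighd, the heavy chain of IgD, was called higher (log2 0.92, SE 0.15, adjusted p = 0.0359) and none lower. Higher on the same side lay 3 of the 9 (8.89% of all genes tested did). The summed level of the whole list was 301 and 313 CPM in lung WT and 271 and 276 in lung KO, whereas spleen had 601 and 611 in WT against 742 and 724 in KO. Cd74, the invariant chain of MHC class II molecules (0.98), and H2-DMa, which loads those molecules (0.57), were also called higher, and Cd86, a costimulatory ligand of antigen-presenting cells (-1.40), was called lower. These 3 were picked with their values in view, and the part that other cells had in them was not tested. In lung, surfactant genes of the alveolar epithelium were higher in KO, with Sftpa1 at 13.2 and 12.2 CPM in WT and 44.5 and 48.2 in KO and Sftpc at 152 and 155 against 251 and 281. Neither had a read in spleen, so they were called without being on the same side in both organs, as were 10 other genes. No T cell (6 tested), myeloid (7), erythroid or platelet (6) or plasma cell (3) marker was called by edgeR for the shared effect, and DESeq2 also called 0 in each list. At an unadjusted p under 0.05 there were 1 T cell, 1 myeloid, 2 erythroid or platelet and 0 plasma cell markers.

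The activation genes Junb and Jund, the NK master regulator Tbx21 (T-bet), the IL-2 and IL-15 receptor chain Il2rb, and Klf2 and Cx3cr1 were not among the shared genes. Each lay above WT in lung and below it in spleen, with log2 fold changes in lung and spleen of 2.16 and -1.65 for Junb, 1.69 and -1.97 for Jund, 1.13 and -1.18 for Tbx21, 1.21 and -0.61 for Il2rb, 1.21 and -1.37 for Klf2, and 0.84 and -0.35 for Cx3cr1. Fos, the AP-1 partner of Junb, was also higher in lung KO (1.70) and lower in spleen KO (-0.21), there by a thin margin. Its spleen levels were 2.49 and 2.68 CPM in WT against 1.95 and 2.29 in KO. The shared effect of these 7 genes did not pass the test, with the smallest adjusted p at 0.113 for Fos.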

How the data were processed

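RNA of sorted NK cells was read at 50 bp in 8 libraries. Per the labels and methods, the authors aligned reads to mm10 with HISAT2 2.1.0, counted them with HTSeq (0.11.1 in the submitters' processing notes) and deposited raw counts per gene symbol. The strand setting and annotation are not given in the sources used here. Rows that name no gene, 70.9% to 72.8% of each deposited total with multiply aligned and unaligned reads, were dropped; the row for reads on no gene held 52.7% to 55.0% of uniquely aligned reads. In R 4.3.3, genes were kept by filterByExpr over the 4 groups, scaled by TMM and tested with edgeR 4.0.16 (quasi-likelihood, terms for organ and genotype, Benjamini-Hochberg over all genes, false discovery rate 0.05). A model of group means gave the effect in each organ and their difference. In the model with organ as a block, an effect that differs between organs adds to the spread. Standard errors were derived from the F statistic. CPM use TMM-scaled library sizes. Floors of 3 reads cover counting error only. Positions are from GENCODE M21 (GRCm38); of 48321 symbols 46394 matched by name and 578 by synonym.

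The members and lists were chosen with earlier results of these data known. Named genes were Ccl5, the 14 smallest p per direction among called genes on the same side (without predicted or Rik genes), the 6 largest changes per direction with a mean of at least 5 CPM, up to 4 called members per list, up to 2 members per list on opposite sides, genes within 500 kb and 7 genes the study names. Not every gene it covers is given, and some items are not reported here. Alternatives were RLE and library-total scaling, other filters, DESeq2 1.42.0, a robust prior, the average of the organ effects, limma 3.58.1 voom with a random block, a replicate block, a GC offset, thinned counts, a stricter threshold and leaving out each library. Scripts were tested on simulated counts.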

Additional observations from a re-analysis of the deposited data

Results flagged for a closer look

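Of 53 named and called genes, 9 had a KO effect on the same side in both organs but of a different size, by the test of the difference (edgeR quasi-likelihood, group means, adjusted p under 0.05). Differences are log2, lung minus spleen. Among genes higher in KO, the rise was larger in lung for Ifng (0.48), Slamf6 (1.13) and Zfp940 (1.31). The rise was larger in spleen for Irak4 (-0.32), S1pr1 (-0.30) and Fosl2 (-0.31). Among genes lower in KO, the fall was larger in spleen for Rab4a (2.24), Heatr9 (0.69) and Cry1 (0.65). With 2 libraries per group no library could be tested for standing apart.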

How the results depend on the processing

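The count of 279 called genes depended on the processing more than the effects did. It was 738 with no filter on low counts, 103 with at least 10 reads in every library, 559 with DESeq2, 5239 for the average of the organ effects in a model of group means, 4155 with voom and a random block, 3 at a false discovery rate of 0.001, and 13 to 22 with 1 library left out. With the replicate block it was 2, and with the GC offset and the replicate block also 2; equal numbers mark no shared animal in the labels, and the deviations of equally numbered libraries correlated at -0.0121 in lung and 0.169 in spleen. The group-means model keeps a differing organ effect out of the spread, which raises its count by construction. In the voom fit the random block joined lung and spleen libraries of the same genotype and number. Its consensus correlation was -0.703, and the SE of the Ccl5 effect was 0.035 there against 0.074 in the main fit. The cause of the other differences was not tested. RLE scaling gave 272 calls, library totals 206, a robust prior 238 and the GC offset 334, and counting only genes on the same side, a choice made after seeing the data, gave 267. No called gene changed sign in any of these fits that tested it. The Ccl5 effect stayed between -2.66 and -2.61. For the other 53 named genes, 519 values kept their side of the threshold and 467 lost the call, none of them reversed. The genes on the same side numbered 1615 to 2897 over the alternatives. List medians moved by less than the spread between libraries in 558 values and by more in 11. Genes of a few reads are limited by the shallowest library.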
